A study of Mus musculus with 42 samples.

Results

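Genes for 10 isoforms of the smaller subunits of cytochrome c oxidase were followed in mouse uterine tissue-resident natural killer (trNK) cells: Cox6a1, Cox6a2, Cox7a1, Cox7a2, Cox7a2l, Cox6b1, Cox6b2, Cox4i1, Cox4i2 and Cox8a. The genes were listed by name, and all 10 were found among the 54353 genes of the bulk RNA-seq tables and among the 35237 genes of the joined single-cell matrix. Cox6a2 was included because its reads were present in the trNK-V subset and absent from the trNK-T subset. It was thus chosen by its RPKM (reads scaled by gene length and library size) in those subsets, and its values there are given as a description without a test.

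Cytochrome c oxidase, complex IV of the mitochondrial respiratory chain, passes electrons from cytochrome c to oxygen. Its catalytic core is encoded by mitochondrial DNA, and nuclear genes encode the smaller subunits around it. Several of these subunits exist in isoforms made from separate genes: Cox6a2 and Cox7a1 are the heart and skeletal muscle isoforms, Cox6a1 and Cox7a2 are their counterparts in most other tissues, Cox6b2 is best known from testis and Cox4i2 from lung and from low oxygen. Uterine trNK cells are lymphocytes that reside in the endometrium and accumulate and mature in the decidua of early pregnancy, where they are known for granzymes and for help in remodelling the maternal arteries.

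The bulk data hold 34 libraries in 17 groups of 2 libraries, and the groups belong to 4 experiments, all from wild-type mice, which were C57BL/6 by the labels or, for the time course, by the study's methods. The gestation experiment compared trNK cells, sorted as CD45+ NK1.1+ NKp46+ CD49a+ CXCR6- cells, of virgin mice and of mice at gestation day (gd) 6.5 and 8.5. The subset experiment split trNK cells of gd8.5 by surface CD55 and 4-1BB into trNK-V (both low), trNK-D (both intermediate) and trNK-T (both high). The culture experiment held NK1.1+ cells without added treatment in the labels, with 20 ng/ml IL-21 for 3 days, or with IL-21 and the STAT3 inhibitor Stattic, at 1 µM by the labels. The methods give this dose in millimolar, so it is uncertain, and the label of the control gives no culture time. The labels of this experiment name no IL-15, but the study's methods put 10 ng/ml IL-15 in the medium of its trNK cultures. The study states 72 h of culture with or without IL-21 and inhibitor. The time course held cultures with IL-15, with or without 20 ng/ml IL-21, at 0, 6, 24 and 72 h. Its IL-15 dose was 10 ng/ml by the treatment labels and the methods, but the deposited protocol gives a higher one, so it is uncertain, and the libraries were made with another amplification kit than the other experiments. The study names trNK-V cells of gd6.5 as the cultured cells, while its methods give trNK cells of virgin or gd6.5 mice. The 4 libraries labelled 0 h held less Il21r than the sorted trNK-V libraries (0.562 to 1.61 against 49.03 and 53.24 RPKM) and less Itga1, the gene of CD49a (2.70 to 5.40 against 21.01 and 15.89 RPKM), and more Cd55 (35.02 to 51.03 against 6.44 and 19.4 RPKM), across different kits. The labels do not state whether the 2 libraries of a group came from separate mice, so a p-value measures only the spread between those libraries, which may be technical.

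The muscle isoforms can be told from their counterparts in sequence. The coding parts of Cox6a1 (336 bases) and Cox6a2 (291 bases) were 64.6% identical, their longest identical run was 12 bases, and no stretch of 50 bases was shared, so reads of that length separate the genes. The best matching coding stretch of 90 bases is shown because the genes are most alike there and still differ; capitals mark the 19 positions at which the pair differs. It lies in exons 2 and 3 of 3 in both genes, at chr5:115345859-115348586 (minus strand, coding bases 234 to 323) for Cox6a1 and at chr7:128205745-128205921 (minus strand, coding bases 189 to 278) for Cox6a2, on GRCm38 (mm10).
Cox6a1: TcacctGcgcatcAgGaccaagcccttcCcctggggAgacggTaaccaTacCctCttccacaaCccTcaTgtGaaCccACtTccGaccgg
Cox6a2: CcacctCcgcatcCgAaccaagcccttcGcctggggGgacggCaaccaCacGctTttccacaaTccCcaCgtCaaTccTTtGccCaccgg

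For Cox7a2 (249 bases) and Cox7a1 (267 bases), the coding parts were 65.4% identical with a longest identical run of 12 bases. The stretch below, at chr9:79756325-79758542 (minus strand, coding bases 56 to 145) and at chr7:30185119-30185311 (plus strand, coding bases 77 to 166), covers exons 2 and 3 of 4 in both genes. Capitals mark the 25 positions that differ.
Cox7a2: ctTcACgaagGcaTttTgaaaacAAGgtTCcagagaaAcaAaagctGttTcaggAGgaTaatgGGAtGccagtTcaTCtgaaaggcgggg
Cox7a1: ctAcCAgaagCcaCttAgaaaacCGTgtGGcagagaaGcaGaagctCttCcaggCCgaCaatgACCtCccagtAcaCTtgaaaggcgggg

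The libraries held between 11861343 and 66462748 counts. A gene was tested where its RPKM exceeded 10 in both libraries of any group of the experiment, which left 3503 to 4683 genes per experiment, and a call needed a fold above 2 and an adjusted p below 0.05 (edgeR quasi-likelihood test, Benjamini-Hochberg over all tested genes). Defining trNK markers (Ncr1, Klrb1c, Eomes and Itga1) were above 0 in all libraries of the gestation and subset experiments. Some libraries stood apart. The virgin libraries differed from each other in Tnfrsf9, the gene of 4-1BB, at 123 and 751 RPKM, and trNK-D replicate 2 held 1698 RPKM of the plasma cell gene Jchain against 3.46 in replicate 1. At 72 h without IL-21, 10724 and 11665 genes had a count, against 12000 to 15679 in the other time-course libraries, and mitochondrial genes took 8.44% and 11.8% of the counts, against 1.9% to 5.73%.

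Cox8a, a small subunit found in most tissues, had the highest level of the 10 genes, with a median of 1345 RPKM over the 34 libraries. Medians of 883 RPKM for Cox6b1, which lies between the monomers of the dimeric enzyme, and of 833 RPKM for Cox6a1 followed. Cox4i1, the general form of the largest nuclear subunit, had a median of 529 RPKM. These medians pool experiments with different levels: Cox6a1 stood above Cox6b1 in the gestation, subset and time-course experiments (719.6 against 641.7, 686.0 against 623.9 and 2158 against 1815 RPKM) and below it in the culture experiment (507.5 against 576.6 RPKM). In the time course Cox7a2, at 1126 RPKM, also stood above Cox4i1, at 584 RPKM. Cox7a2 had a median of 443 RPKM and Cox7a2l, which links complex IV with complex III in supercomplexes, of 137 RPKM. Cox6a2 had a median of 37.5 RPKM and Cox7a1 of 3.50 RPKM, so of the isoforms known from particular tissues Cox6a2 stood highest. Cox6b2 had a median of 0.756 RPKM and Cox4i2 a median of 0.

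**Figure D1:**
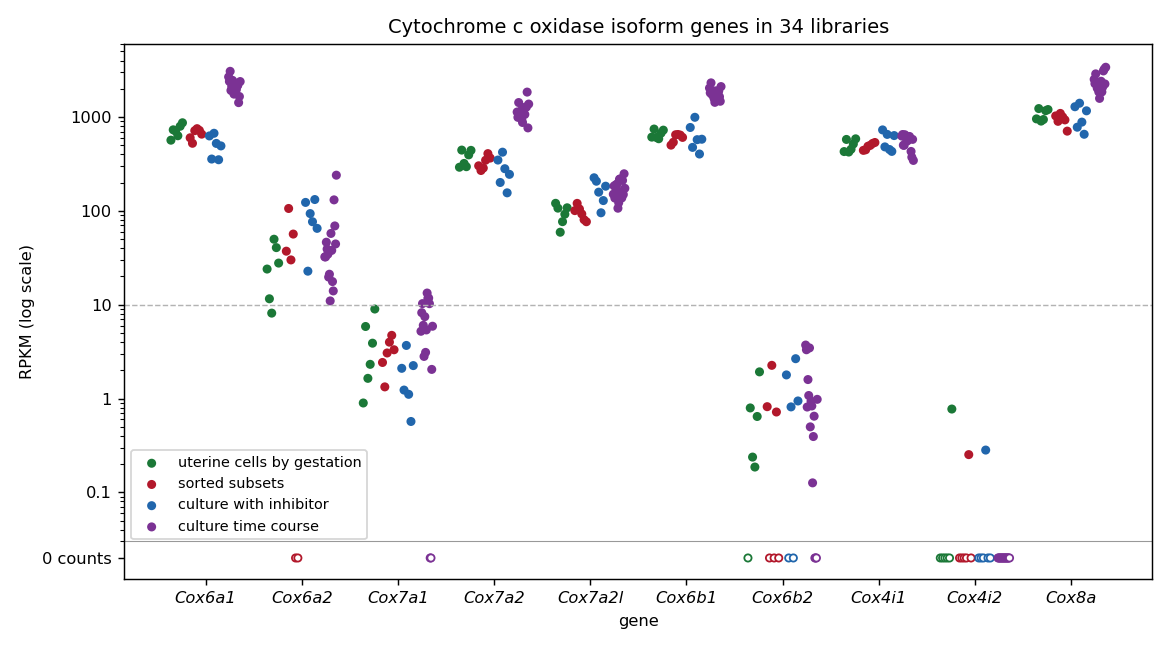
RPKM (vertical axis, log scale) of each of the 10 isoform genes in each of the 34 bulk libraries, 1 point per library, coloured by experiment; open points at the foot are libraries with 0 counts, and the dashed line marks 10 RPKM. Cox6a2 reaches from 0 to 240 RPKM, and Cox7a1, Cox6b2 and Cox4i2 lie below the general isoforms in every library.

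In the subsets of gd8.5, Cox6a2 was at 37.2 and 106 RPKM in trNK-V (390 and 1012 counts), at 30.0 and 56.6 RPKM in trNK-D (424 and 757 counts) and at 0 in both trNK-T libraries. The trNK-V and trNK-D libraries overlapped, and both lay above trNK-T. With a floor of 3 counts per library, the mean in trNK-T was at least 215-fold lower than in trNK-V and at least 130-fold lower than in trNK-D. It was at least 99.9-fold and 80.7-fold lower when the lowest library of the higher group was taken. These bounds cover counting error only, and the trNK-V libraries differed by 2.85-fold. In these bulk samples, fewer cells of a type and less RNA per cell cannot be told apart.

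As a share of the RPKM of the Cox6a pair, Cox6a2 made up 5.83% and 16.8% in trNK-V and 4.03% and 7.004% in trNK-D. In trNK-T, a count of 0 allowed at most 0.0407% and 0.0566%, limits that cover counting error only. Cox6a1 itself was at 601 and 525 RPKM in trNK-V, at 715 and 751 RPKM in trNK-D and at 720 and 657 RPKM in trNK-T, so the general isoform was present in all 3 subsets, between 525 and 751 RPKM.

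Markers of other cells also moved between these libraries. Lyz2, a gene of macrophages and neutrophils, was at 19.3 and 269 RPKM in trNK-V, at 212 and 303 RPKM in trNK-D and at 1.97 and 4.61 RPKM in trNK-T. The summed RPKM of 6 macrophage markers ran from 23.7 to 277 in trNK-V, from 230 to 316 in trNK-D and from 3.98 to 5.16 in trNK-T, where Csf1r was at 0. In trNK-V, trNK-D and trNK-T in turn, the sum ran from 161 to 165, 58.6 to 88.8 and 28 to 32.7 RPKM for 5 T cell markers, and from 2820 to 3770, 1870 to 2060 and 985 to 1090 RPKM for 8 conventional NK markers, of which several are shared with trNK cells. It ran from 3.03 to 42.1, 1.12 to 3.3 and 0.335 to 0.513 RPKM for 4 stromal markers, and from 1.00 to 5.96, 1.37 to 1.78 and 0.0884 to 0.141 RPKM for 6 smooth muscle markers. For 7 markers of type 1 innate lymphoid cells (ILC1) it ran from 1340 to 1390, 963 to 1140 and 604 to 759 RPKM. Ncr1, Klrb1c and Itga1 of this list are also trNK markers. Cxcr6, Il7r and Cd200r1 of it were at 0 in both trNK-T libraries, and Il7r also in trNK-V and trNK-D. These lists were lowest in trNK-T, as was the trNK list itself, at 1380 to 1390, 979 to 1170 and 644 to 799 RPKM. Mast cell markers and plasmacytoid dendritic cell markers ran the other way, from 0.371 to 1.93, 2.24 to 4.27 and 5.55 to 5.93 RPKM and from 122 to 149, 162 to 185 and 177 to 217 RPKM. Mcpt4, Tpsb2 and Tpsab1 of the mast cell list were at 0 in every subset. Siglech, Ccr9 and Ly6d of the other list were at 0 in both trNK-T libraries, so its sum there came from Bst2, Tcf4 and Irf8. Cox6a2 also shares 70 bases, 10.3% of its exons, with Itgad on the other strand, and Itgad was at 10.5 and 7.01 RPKM in trNK-V, 7.06 and 4.19 RPKM in trNK-D and 0.647 and 0.318 RPKM in trNK-T. The part of the other cells and of Itgad reads in the Cox6a2 counts was not tested.

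**Figure D2:**
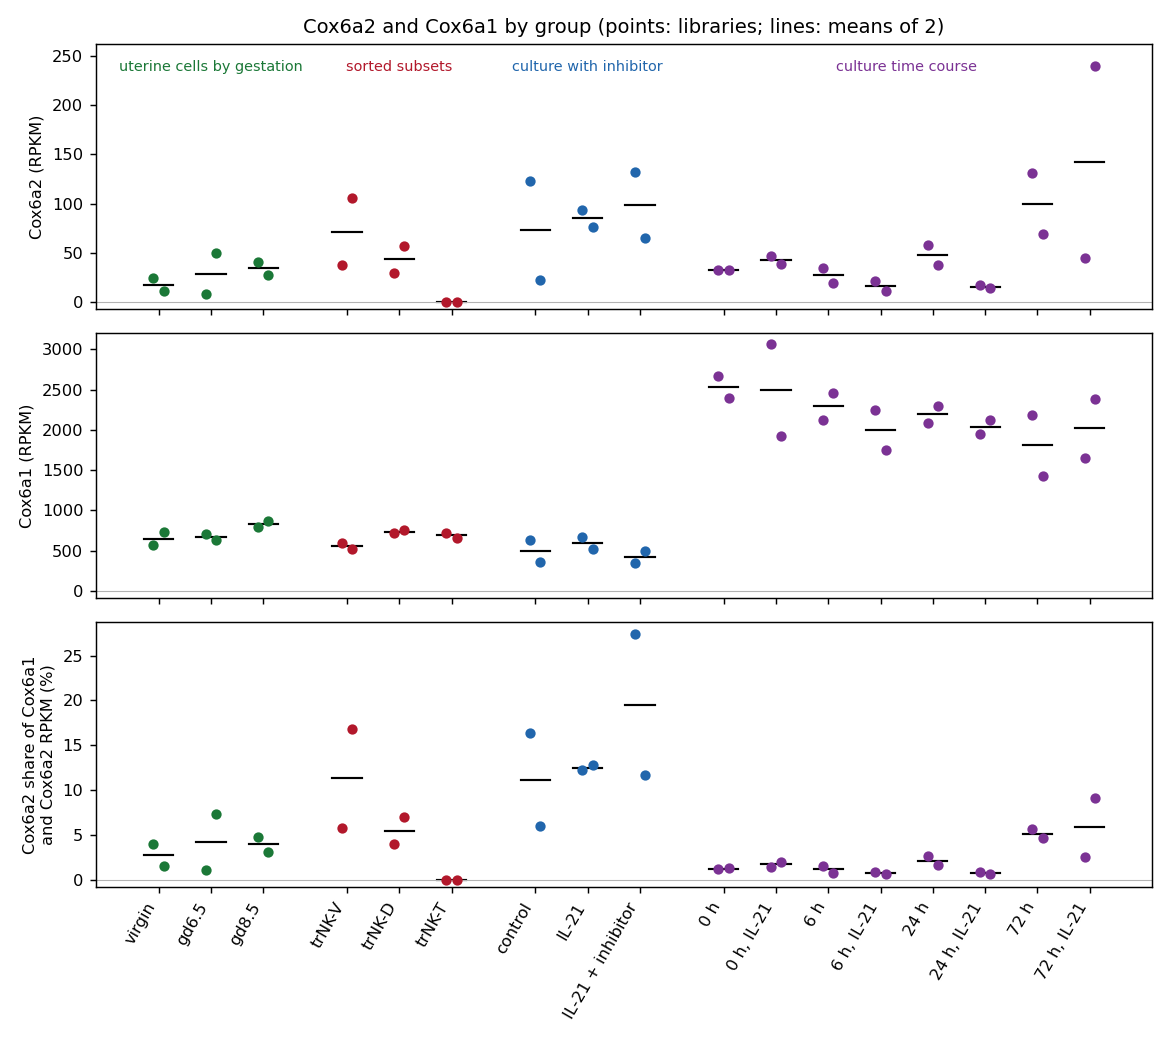
Cox6a2 (upper panel) and Cox6a1 (middle panel) in RPKM and the share of Cox6a2 in the RPKM of the pair in percent (lower panel), by group, with 1 point per library and a line at the mean of 2 libraries. Cox6a2 is at 0 in the trNK-T libraries and above 0 in the other 16 groups, while Cox6a1 is at 350 RPKM or more in every library and higher in the time course, which used another kit.

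Across the 17 groups, whose experiments used different kits, the mean level of Cox6a2 was highest at 72 h with IL-21, at 142 RPKM (44.4 and 240 RPKM, so this place rests on 1 library), and next at 72 h without IL-21 (100 RPKM) and in the culture with IL-21 and inhibitor (98.5 RPKM). It was lowest, apart from trNK-T, in the libraries with IL-21 at 24 h (15.8 RPKM) and at 6 h (16.1 RPKM). In this order each group overlapped its neighbour, except at the last step, from 15.8 RPKM to 0. The 2 libraries of a group differed by a median of 1.89-fold for Cox6a2 and by up to 6.13-fold, and by more than 2-fold in 6 of 16 groups. For Cox6a1 the median was 1.16-fold and no group exceeded 2-fold.

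Over gestation, Cox6a2 was at 24.0 and 11.6 RPKM in virgin mice, at 8.13 and 49.8 RPKM at gd6.5 and at 40.6 and 27.8 RPKM at gd8.5. The gd6.5 libraries enclosed all the others, while gd8.5 lay above virgin. The log2 fold change was 0.62 at gd6.5 (SE 0.81, adjusted p = 0.624, edgeR) and 0.87 at gd8.5 (SE 0.81, adjusted p = 0.632) against virgin, and neither passed the test. Cox6a1 was at 566 and 730 RPKM in virgin mice, at 709 and 632 RPKM at gd6.5 and at 797 and 868 RPKM at gd8.5, where both libraries lay above the rest. Its log2 fold change from gd6.5 to gd8.5 was 0.33 (SE 0.18, adjusted p = 0.332).

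In the culture experiment, Cox6a2 was at 123 and 22.8 RPKM in the control, at 93.5 and 76.6 RPKM with IL-21 and at 132 and 65.1 RPKM with IL-21 and Stattic. All 3 groups overlapped. The log2 fold change was 0.42 for IL-21 against the control (SE 0.72, adjusted p = 0.939, edgeR), and the inhibitor differed from IL-21 alone by 0.31 with an adjusted p of 0.869. Cox6a2 made up 6.00% to 27.4% of the Cox6a pair in the 6 libraries of this experiment. In the time course, made with another kit, the mean share of a group ran from 0.776% with IL-21 at 24 h to 5.87% with IL-21 at 72 h, and it was 1.26% at 0 h. Sorted trNK cells of gd6.5 had shares of 1.13% and 7.31%. Cox6a1 was at 629 and 357 RPKM in the control, at 671 and 523 RPKM with IL-21 and at 350 and 492 RPKM with the inhibitor.

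In the time course without IL-21, Cox6a2 was at 32.3 RPKM in both libraries at 0 h, at 34.5 and 19.7 RPKM at 6 h, at 57.5 and 37.9 RPKM at 24 h and at 131 and 69.1 RPKM at 72 h. Every library of 24 h lay above those of 6 h, and every library of 72 h above those of 24 h. The step from 24 h to 72 h had a log2 fold change of 1.38 (SE 0.72, adjusted p = 0.212, edgeR) and that from 6 h to 24 h one of 0.96 (SE 0.72, adjusted p = 0.998). Neither passed the threshold.

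The libraries labelled 0 h with IL-21 held 46.3 and 39.2 RPKM. With IL-21, Cox6a2 was at 21.1 and 10.97 RPKM at 6 h, at 17.6 and 14.02 RPKM at 24 h and at 44.4 and 240 RPKM at 72 h. The 24 h libraries lay below their untreated counterparts without overlap, whereas those of 6 h overlapped and those of 72 h enclosed theirs. At 24 h the log2 fold change for IL-21 was -1.70 (SE 0.73, unadjusted p = 0.0401, adjusted p = 0.306, edgeR), and adjusted p ranged from 0.000626 to 0.919 over the alternative settings. The lowest of these came from a fit with only the groups compared, in which Cox6a2 was called. At 72 h the log2 fold change was 0.62 (SE 0.71, adjusted p = 0.638), and it ran from -1.46 to 1.43 when settings were changed or 1 library was left out.

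The single-cell experiment gave a second view of the Cox6a pair, as unique molecular identifier (UMI) counts. The files labelled virgin and gd8.5 listed the same 15175 cells with 0 genes in common, so they were joined and treated as 1 pooled sample without a test. After limits of 200 to 2500 genes and below 10% mitochondrial counts, 8907 cells fell into 17 clusters, which were named from fixed markers. UMI counts scaled to the total UMIs of a class (CPM) are given with exact 95% Poisson intervals, which cover counting error only.

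Cox6a2 stood at 67.6 CPM (59.0 to 77.1) in virginal-like trNK cells, 1157 cells in clusters with at least 3 of the 4 markers Il21r, Il10rb, Cd27 and Itgam. It stood at 16.4 CPM (12.4 to 21.2) in 893 intermediate trNK cells and at 13.0 CPM (8.75 to 18.5) in 523 dividing trNK cells. In 1319 terminal-like trNK cells it stood at 1.15 CPM (0.497 to 2.27), from 8 UMIs against 222 in the virginal-like cells. The study's methods set the limits of 200 and 2500 on UMIs rather than on genes. With its limits 234 terminal-like cells were left, with 13.7 CPM (4.46 to 32) from 5 UMIs against 72.8 CPM (62.1 to 84.8) in virginal-like cells, and other clusterings of the same cells gave 3.34 and 4.78 CPM in terminal-like cells. The lower level in terminal-like cells was found in all of these settings, and its size depended on them. Cox6a1 ran the other way between the ends, with 459 CPM in virginal-like, 516 CPM in intermediate, 654 CPM in dividing and 540 CPM in terminal-like trNK cells. Of the UMIs of the pair, Cox6a2 took 12.8% (exact binomial 95% interval 11.3 to 14.5) in virginal-like and 0.213% (0.0919 to 0.419) in terminal-like cells.

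The virginal-like class held 2 clusters. Cox6a2 was at 70.2 CPM in the cluster led by Xcl1 and at 28.8 CPM (10.6 to 62.6) in a cluster of 85 cells led by the interferon-induced genes Cxcl10 and Ifit1. A cluster of 1056 cells led by Tcrg-C4 and Cxcr6 held 56.5 CPM (47.8 to 66.3), and Cox6a2 took 12.5% (10.7 to 14.5) of its Cox6a pair. It also met the markers of virginal-like cells, but CXCR6 was excluded by the sort of the bulk trNK cells, so it was left without a name, a choice made after its values were seen. With it the class held 62.6 CPM (56.4 to 69.3). Its Cxcr6 level was 125 CPM, against 26.0 CPM in the cluster led by Xcl1 and 144 CPM in that led by Cxcl10, while Eomes was at 372, 414 and 302 CPM in these clusters. Outside the named trNK stages, Cox6a2 was at 6.29 CPM (3.94 to 9.52) in macrophage-like cells. It was at 4.22 CPM in T cell-like cells and at 5.34 CPM in stromal-like cells, from 3 UMIs each. A cluster without a name led by Cma1 and S1pr5 held 9.01 CPM, and another led by Ccl22 and Cd209a held 22.7 CPM (14.4 to 34), the highest outside the trNK classes and the cluster led by Tcrg-C4. The cluster led by Ccl22 also held Ncr1, Klrb1c, Eomes and Itga1 at 272, 331, 177 and 146 CPM. The cluster led by Xcl1 held them at 599, 679, 414 and 357 CPM. No doublet caller was run, and the part of NK cell RNA in the Cox6a2 of the cluster led by Ccl22 was not tested. A UMI of Cox6a2 was found in 0 of 303 B cell-like cells, which allows a share of cells with a UMI of up to 0.99% (3 cells) at their median depth of 1824 UMIs and sets no limit on cells expressing the gene.

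A UMI of Cox6a2 was found in 7.17% of virginal-like, 2.35% of intermediate, 2.49% of dividing, 0.379% of terminal-like and 1.44% of macrophage-like cells, with median depths of 2478, 3912, 4726, 5587 and 2701 UMIs per cell. After each cell was thinned to 1000 UMIs these shares were 4.53%, 1.67%, 1.4%, 0.23% and 0.46%. After thinning, the shares in terminal-like (3 cells, exact binomial 95% interval 0.0475 to 0.672) and macrophage-like cells (5 cells, 0.15 to 1.07) had intervals that overlap, so no order is read from them. The 83 positive virginal-like cells held a mean of 2.67 UMIs and at most 12, and 25 of them held a single one. For Cox6a1, 736 virginal-like cells held a mean of 2.05 UMIs and at most 9, and 362 held a single one. The Cox6a2 UMIs thus came from fewer cells with more UMIs in each, as far as detected, and the median total of the positive cells was 2864 UMIs for Cox6a2 and 2900 UMIs for Cox6a1.

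**Figure D3:**
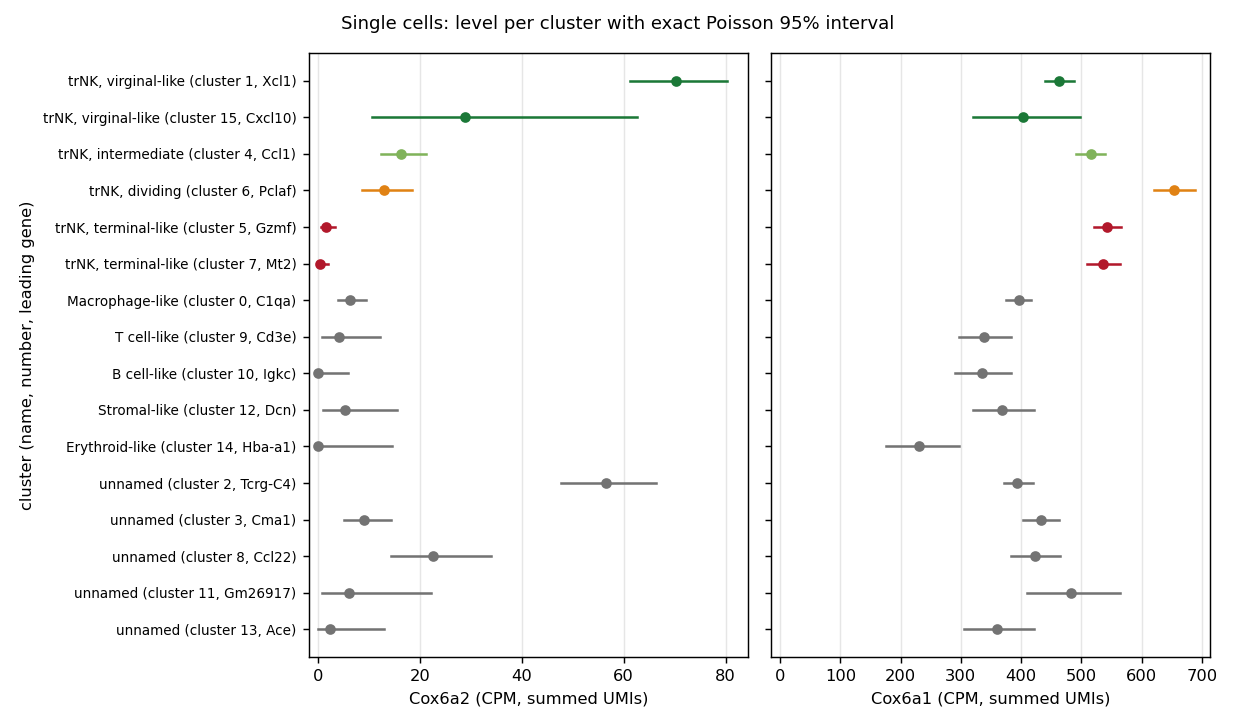
Cox6a2 (left) and Cox6a1 (right) in CPM (horizontal axes) by cluster of single cells, each with its name, number and leading gene; lines are exact 95% Poisson intervals, which cover counting error only, and a cluster of 13 neutrophil-like cells is left out. Cox6a2 is highest in the virginal-like cluster led by Xcl1 (70.2 CPM) and the unnamed cluster led by Tcrg-C4 (56.5 CPM) and near 0 in both terminal-like clusters, whereas Cox6a1 is higher in the terminal-like than in the virginal-like clusters.

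Cox7a1, the muscle isoform of subunit 7a, was at 0.570 to 8.99 RPKM in the gestation, subset and culture experiments and passed the filter only in the time course, through its 24 h groups, where it was highest, so a test against 24 h is not independent of the filter. Without IL-21 it was at 5.21 and 8.22 RPKM at 0 h, at 2.81 and 7.45 RPKM at 6 h, at 13.3 and 11.7 RPKM at 24 h (216 and 268 counts) and at 0 in both libraries at 72 h. The 24 h libraries lay above all others without IL-21 and the 72 h libraries below. The drop from 24 h to 72 h had an adjusted p of 0.000495 (edgeR, 2.45e-07 to 0.0424 over 10 alternatives, 0.000195 with no gene filter) and was at least 75.5-fold by a floor of 3 counts per library. Cox7a1 was the 1 member called of 8 tested, beside 14.8% of all tested genes, and nothing is read from this count because Cox7a1 entered the test through its 24 h groups. The groups did not overlap for 6 of the 8 members, nor for 64.7% of all tested genes.

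The libraries labelled 0 h with IL-21 held 10.3 and 6.03 RPKM of Cox7a1. With IL-21 it was at 3.10 and 5.39 RPKM at 6 h, at 11.8 and 10.3 RPKM at 24 h and at 2.04 and 5.89 RPKM (40 and 90 counts) at 72 h. At 72 h both IL-21 libraries lay above the untreated ones, by at least 24.0-fold for the means and at least 10.4-fold for the lower library. These bounds, like that for the drop from 24 h to 72 h, cover counting error only. The adjusted p was 0.00197 (edgeR, 1.58e-05 to 0.00973 over 9 alternatives), and Cox7a1 was again the 1 member called of 8, against 8.08% of all tested genes. It was also the 1 member of 8 without overlap, beside 38.2% of all tested genes. In a fit with only the groups compared it did not reach the filter and had no test. The effect of IL-21 differed between 72 h and 6 h, with a difference of 10.24 on the log2 scale (SE 1.65, adjusted p = 0.00602, edgeR), a fitted value that depends on the prior count because 1 group had no reads. The background of called genes for this difference was 4.17%. None of these 6 h and 72 h groups passed the filter for Cox7a1 on its own, and a fit with only these groups was not run. The other culture experiment, for which the study also states 72 h, used another kit. Its control libraries held 2.099 and 1.231 RPKM of Cox7a1 (21 and 12 counts), so the gene was not absent there. Its IL-21 libraries held 3.68 and 1.109 RPKM (24 and 8 counts) and overlapped the control. Cox7a1 was below the filter in that experiment, so this difference was not tested.

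Other values moved with the absence of Cox7a1 at 72 h. Of the 3503 tested genes, 67 (1.91%) had no read in both untreated libraries at 72 h, against 0 to 7 genes in the other time-course groups. Among 1520 genes within 2-fold of the 24 h level of Cox7a1, 37 (2.43%) had none. Cox6b2 was also at 0 in both of these libraries. The summed RPKM of 4 markers of dividing cells ran from 241 to 284 at 24 h and from 3.44 to 3.49 in these libraries. It ran from 12.6 to 37.4 at 72 h with IL-21. From 24 h to these libraries, the sum of 7 terminal markers went from 426 to 451 to 112 to 171 RPKM. That of 4 trNK markers went from 1400 to 1500 to 1520 to 1580 RPKM. These libraries held the fewest genes with a count and the highest mitochondrial share of the time course. The part of all this in the Cox7a1 value was not tested.

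Cox7a2, the general isoform of subunit 7a, was at 302 and 269 RPKM in trNK-V, at 286 and 346 RPKM in trNK-D and at 407 and 365 RPKM in trNK-T. In the time course it was at 1122 and 1240 RPKM at 24 h and at 1275 and 1843 RPKM at 72 h without IL-21, and at 766 and 1374 RPKM at 72 h with IL-21. The step from 24 h to 72 h had a log2 fold change of 0.77 (SE 0.38, adjusted p = 0.186, edgeR), so both libraries were higher at 72 h but the test was not passed. For IL-21 at 72 h Cox7a2 was called only without replicate 2 of the IL-21 group (log2 fold change -1.37, adjusted p = 0.0264). Cox7a1 made up a median of 0.675% and at most 2.00% of the RPKM of the Cox7a pair over the 34 libraries, against 2.89% and 27.4% for Cox6a2 in its pair. In the single cells Cox7a1 was at 1.83 CPM (0.670 to 3.98) in virginal-like and 5.18 CPM (3.63 to 7.17) in terminal-like trNK cells, with intervals that overlap.

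Cox7a2l came nearest to a call among the remaining genes. In virgin mice it was at 120 and 107 RPKM, at gd6.5 at 59.2 and 76.7 RPKM and at gd8.5 at 92.1 and 108 RPKM. Both gd6.5 libraries lay below all others, and 3 of 7 members had no overlap between virgin and gd6.5, as did 60.5% of all tested genes. The log2 fold change from virgin to gd6.5 was -0.82 (SE 0.21, adjusted p = 0.0558, edgeR), with adjusted p from 0.00333 to 0.318 over the alternatives. No member was called in this comparison, against 6.22% of all tested genes. The gene model of Cox7a2l was longer in the table of virgin replicate 1 (1478 against 1147 bases), and without this library the log2 fold change was -0.72 (adjusted p = 0.0584). With that table's own length this library held 93.4 RPKM, still above gd6.5. Cox8a, also among the 3, had a longer model there too (619 against 545 bases), and with its own length this library held 841 RPKM in place of 955 RPKM and no longer lay above gd6.5 (905 and 940.0 RPKM).

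IL-21 went with lower Cox7a2l early in the time course. At 6 h it was at 107 and 122 RPKM with IL-21 against 175 and 194 RPKM without, and at 24 h at 157 and 137 RPKM against 217 and 219 RPKM. Neither pair of groups overlapped. The log2 fold change was -0.73 at 6 h (SE 0.19, adjusted p = 0.0881, edgeR, 0.00484 to 1 over the alternatives) and -0.67 at 24 h (SE 0.19, adjusted p = 0.116, 0.00169 to 1), both short of the threshold. At 72 h the groups overlapped, at 248 and 174 RPKM with and 211 and 149 RPKM without IL-21. The difference between the effects at 72 h and 6 h was 0.88 on the log2 scale (SE 0.27, adjusted p = 0.0954, 0.0196 to 0.733), and it was called without replicate 1 of the untreated 72 h group (1.08, adjusted p = 0.0225). In the other culture experiment Cox7a2l was at 225 and 207 RPKM in the control, at 158 and 95.4 RPKM with IL-21 and at 129 and 183 RPKM with the inhibitor, and the log2 fold change for IL-21 was -0.57 (adjusted p = 0.764). C57BL/6 mice carry a shortened form of the Cox7a2l protein, and the genome holds a copy of the gene on chromosome 12, 97.7% identical over 813 bases, so its reads are uncertain.

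**Figure D4:**
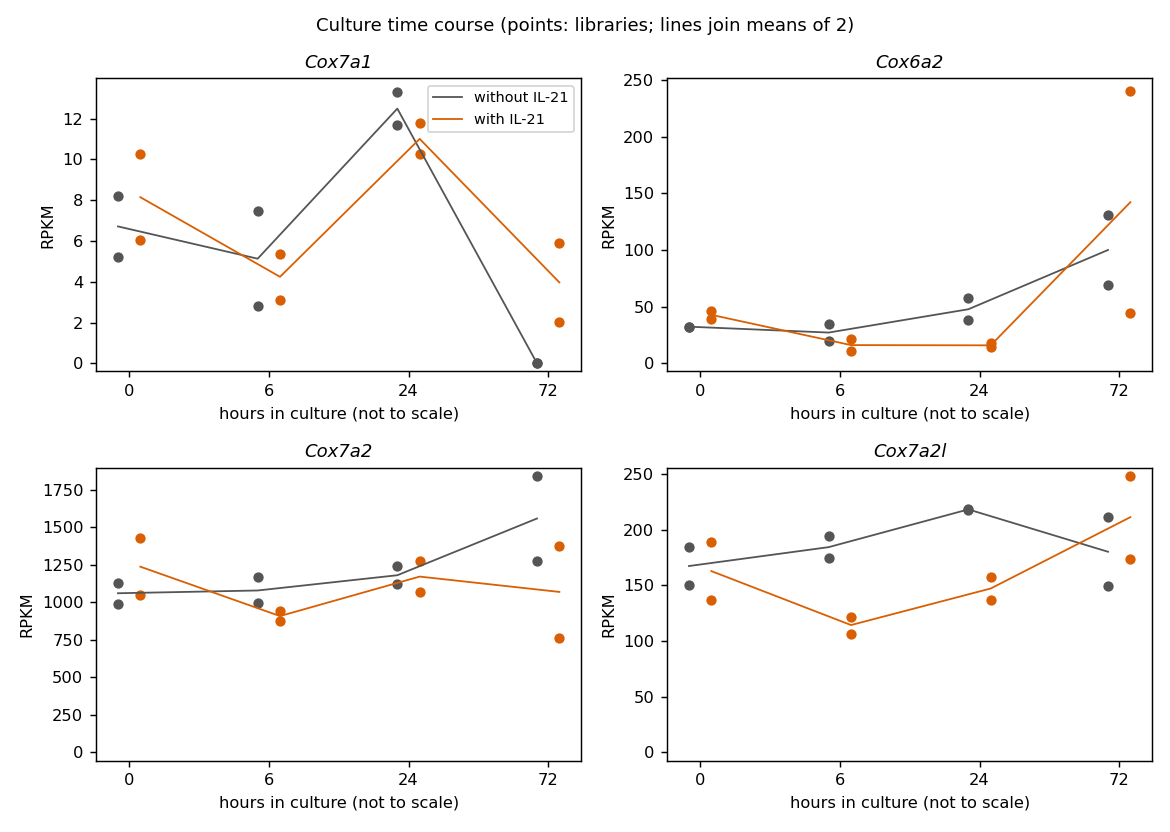
RPKM (vertical axes) of Cox7a1, Cox6a2, Cox7a2 and Cox7a2l at 0, 6, 24 and 72 h of culture (horizontal axes, not to scale) without IL-21 (grey) and with IL-21 (orange), 1 point per library and lines joining the means of 2 libraries. Cox7a1 reaches 0 at 72 h without IL-21, Cox7a2l lies lower with IL-21 at 6 and 24 h, and the Cox6a2 libraries with IL-21 lie far apart at 72 h.

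Cox6b1, Cox4i1 and Cox8a were not called in any comparison. The nearest was Cox8a, at 2217 and 2404 RPKM at 24 h and at 3098 and 3231 RPKM at 72 h without IL-21 (log2 fold change 0.81, SE 0.30, adjusted p = 0.085, edgeR, and 0.0312 in DESeq2). Both 72 h libraries lay above those of 24 h. Cox6b1 changed by 0.27 over the same step (SE 0.28, adjusted p = 0.546) and Cox4i1 by -0.22 (SE 0.15, adjusted p = 0.342), on the log2 scale. Cox4i1 shares 154 bases, 9.9% of its exons, with Emc8, so part of its counts may be split.

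Cox6b2 and Cox4i2 did not pass the filter in any experiment. Cox6b2 had no read in 9 of the 34 libraries and at most 3.71 RPKM, at 0 h. Cox4i2 had no read in 31 of the 34 libraries. Its reads were 10 counts at gd8.5, 3 in a trNK-T library and 3 in a culture with IL-21. In the single cells Cox6b2 was at 0.913 CPM in virginal-like, 2.01 CPM in terminal-like and 19.6 CPM (9.77 to 35) in stromal-like cells, and Cox4i2 had 0 UMIs in virginal-like and terminal-like trNK cells.

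Between trNK-D and trNK-V, 0 of 6 tested members apart from Cox6a2 were called, beside 0.32% of all tested genes, 5 had a log2 fold change above 0, beside 50.4%, and 3 had no overlap, beside 53.4%. The lowest adjusted p was that of Cox6a1 (log2 fold change 0.39, SE 0.15, unadjusted p = 0.0345, adjusted p = 0.222, edgeR). Between trNK-T and trNK-D, 0 of 6 were called, beside 1.75%, 2 had a log2 fold change above 0 (3 with edgeR's own filter), beside 48.4%, and 5 had no overlap, beside 58.9%. The median of the 6 was 0.16 and -0.08 on the log2 scale for these steps, against 0.01 and -0.02 over all genes.

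Against trNK-V the means in trNK-T, given without a test, were 688 against 563 RPKM for Cox6a1, 386 against 286 RPKM for Cox7a2, 624 against 520 RPKM for Cox6b1 and 529 against 444 RPKM for Cox4i1. They were 78.6 against 110 RPKM for Cox7a2l and 819 against 963 RPKM for Cox8a. The libraries overlapped for Cox8a and not for the other 5, as for 74.8% of all tested genes, and this contrast chose Cox6a2, so nothing is read from the count. In the single cells, terminal-like cells had higher levels than virginal-like cells for Cox7a2 (484 against 313 CPM), Cox6b1 (622 against 440 CPM), Cox4i1 (765 against 590 CPM) and Cox8a (956 against 770 CPM), and lower levels for Cox7a2l (261 against 296 CPM).

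Elsewhere the genes often leaned together without passing the test. From gd6.5 to gd8.5 all 7 tested members had a log2 fold change above 0, beside 49.7% of all tested genes, with a median of 0.34, and 6 had no overlap, beside 68.7%, with 0 called among the members and 0% of all genes called. At 6 h all 8 tested members were lower with IL-21, where 48.6% of all genes had a log2 fold change above 0, with a median of -0.32, and 5 had no overlap, beside 58.9%. At 24 h again all 8 had a log2 fold change below 0 with IL-21, where 51% of all genes were above 0, with a median of -0.25. By RPKM, 3 had no overlap, beside 67.2%. The log2 fold changes use TMM factors and the RPKM do not, so small changes can differ in sign between them. Cox4i1 was at a mean of 604 RPKM with IL-21 at 24 h against 593 RPKM without. None was called, beside 1.97% of all genes at 6 h and 1.66% at 24 h. These directions were kept with other size factors, in DESeq2 and with other gene filters, which all use the same libraries. Over all comparisons and alternatives, fits without 1 library included, the sign of a member changed in 83 of 1118 values. Cox6a2 was at 8.13 and 49.8 RPKM at gd6.5 against 40.6 and 27.8 RPKM at gd8.5. At 6 h Cox7a1 was at 3.10 and 5.39 RPKM with IL-21 against 2.81 and 7.45 RPKM without. These groups overlapped, so both directions depend on single libraries. For 6 members the change at 6 h lay between -0.19 and -0.37, and only for Cox7a2l and Cox6a2 (-0.77) was it larger. Mitochondrial genes took 2.54% and 1.9% of the counts with IL-21 at 6 h, against 3.57% and 3.78% without. At 24 h they took 2.28% and 2.8% with IL-21, against 4.76% and 4.58% without. The part of this in the directions was not tested.

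Against virgin, 1 of 7 members had a log2 fold change above 0 at gd6.5 (49.1% of all genes) and 5 of 7 at gd8.5 (49% of all genes). With other gene filters these were 2 and 6. Mean RPKM was also higher for Cox6a1 at gd6.5 (670 against 648) and for Cox6b1 at gd8.5 (699 against 677). At gd8.5, 0 were called (0.377% of all genes), 2 had no overlap (46.6% of all genes) and the lowest adjusted p was 0.501 (edgeR). In the culture experiment, 0 of 7 members were called for IL-21 against the control (0.289% of all genes), for inhibitor against IL-21 (2.96%) and for inhibitor against the control (4.74%). The members with a log2 fold change above 0 were 6 (48.3% of all genes), 3 (48.4%) and 4 (48.6%) of 7 in these comparisons, and those without overlap were 1 (41.7%), 2 (49%) and 1 (56.1%). The largest of these differences outside Cox6a2 was that of Cox7a2, at 156 and 245 RPKM with the inhibitor and 422 and 281 RPKM with IL-21 (log2 fold change -0.72, SE 0.42, adjusted p = 0.398, edgeR). These groups did not overlap. From 0 h to 6 h without IL-21, 0 of 8 members were called, beside 0% of all genes. A log2 fold change above 0 was found for 1, beside 50.7%, and 0 had no overlap, beside 39.3%. From 6 h to 24 h, 0 of 8 were called, beside 0.0856%. All 8 had a log2 fold change above 0 (6 without a gene filter), beside 49.5%, and 4 had no overlap, beside 51%. Cox7a1, among both, passed the filter only through its 24 h groups, so nothing is read from these counts. Mean RPKM was lower at 24 h for Cox6a1 (2191 against 2293) and for Cox4i1 (593 against 635). From 24 h to 72 h, 6 of 8 had a log2 fold change above 0 (4 with other gene filters), beside 48.1%. Of these, Cox6a1 (1807 against 2191), Cox7a2l (180 against 218) and Cox6b1 (1770 against 1862) had a lower mean RPKM at 72 h. For IL-21 at 72 h, 6 of 8 had a log2 fold change above 0 (5 in DESeq2 and with other filters), beside 52.8%.

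In all 12 comparisons in which edgeR called 0 members, DESeq2 also called 0. Members with an unadjusted p below 0.05 there were Cox7a2l at gd6.5 against virgin, at gd8.5 against gd6.5 and with IL-21 at 6 h and 24 h, Cox6a1 in trNK-D against trNK-V and Cox6a2 with IL-21 at 24 h, and the other 7 comparisons had 0. Of all genes, 0 were called by edgeR from gd6.5 to gd8.5, with 1062 at an unadjusted p below 0.05 and 221 called by DESeq2, and 0 from 0 h to 6 h, with 106 and 6.

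**Figure D5:**
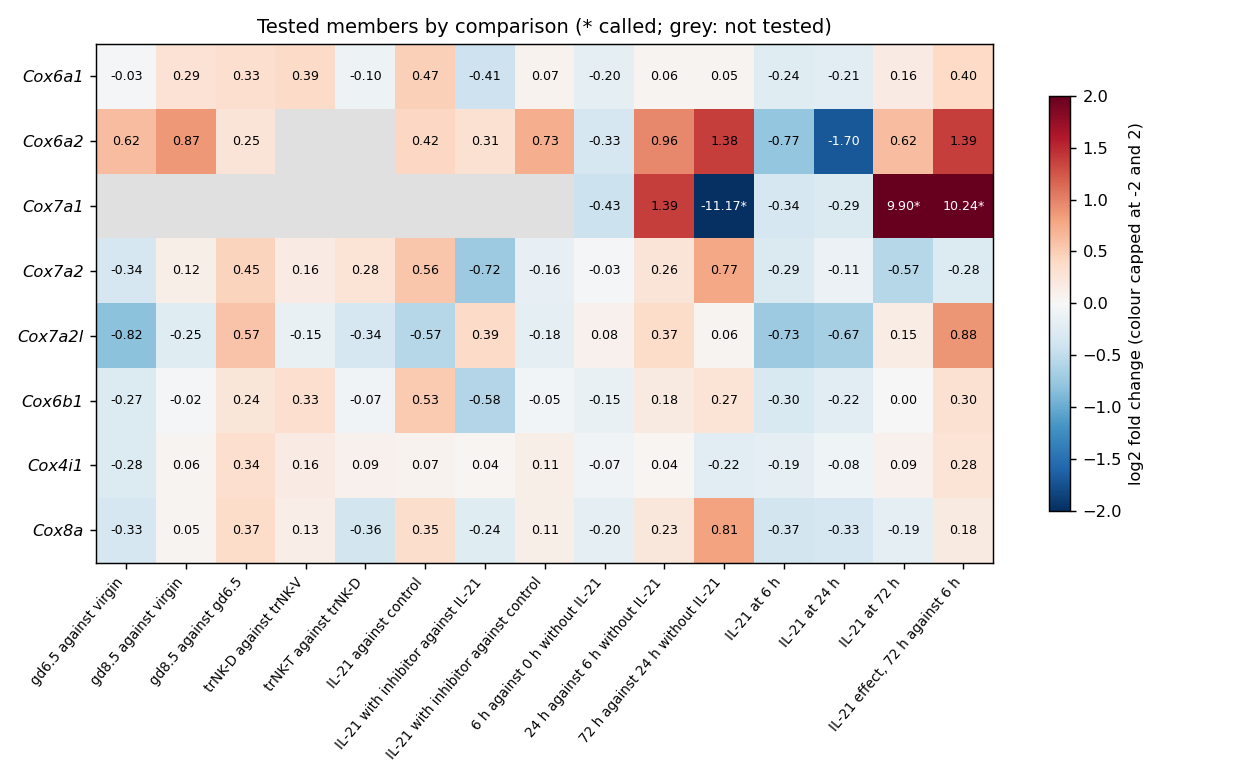
Log2 fold change of the 8 isoform genes tested in any experiment (vertical axis) in 15 comparisons (horizontal axis), printed in each cell and shown by a colour that is capped at -2 and 2; an asterisk marks a call (adjusted p below 0.05 and fold above 2), and grey marks no test. Cox7a1 alone is called, in 3 comparisons with the untreated 72 h libraries, and its fitted values there depend on the prior count because those libraries hold no read of it; it passed the filter only through its 24 h groups, so its call against 24 h is not independent of the filter.

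The partners of these subunits were taken from lists that were likewise chosen with earlier results in view. Of 3 subunits encoded by mitochondrial DNA, which form the catalytic core, all 3 rose from 24 h to 72 h without IL-21, where 14.8% of all tested genes were called. mt-Co1 was at 7436 and 7614 RPKM at 24 h and 11480 and 12550 RPKM at 72 h (log2 fold change 1.03, SE 0.23, adjusted p = 0.0129, edgeR). mt-Co2 rose by 1.65 (SE 0.45, adjusted p = 0.0303) and mt-Co3 by 1.49 (SE 0.46, adjusted p = 0.0464). With IL-21 at 24 h, mt-Co1 was at 2960 and 3071 RPKM and was lower than without (log2 fold change -1.42, SE 0.23, adjusted p = 0.016). Each of these calls was lost in 5 or 6 of 10 alternatives, and adjusted p reached 0.0896 for mt-Co1, 0.152 for mt-Co2 and 0.225 for mt-Co3 from 24 h to 72 h and 0.228 for mt-Co1 with IL-21. The 72 h libraries also held the higher mitochondrial share given above. At 24 h this share was 2.28% and 2.8% with IL-21 against 4.76% and 4.58% without. The part of these shares in the values was not tested. Of 10 other nuclear subunits, 6 were tested in each experiment and 0 were called by edgeR in any comparison, beside 0% to 21.2% of all tested genes.

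Of 26 assembly factors, 13 or 14 were tested per experiment. From 24 h to 72 h without IL-21, Pet100 rose from 80.5 and 79.3 RPKM to 127 and 194 RPKM (log2 fold change 1.38, adjusted p = 0.0446, edgeR) and Cmc2 fell from 80.2 and 102 RPKM to 40.5 and 13.3 RPKM (log2 fold change -1.47, adjusted p = 0.025). These calls held in 5 and 6 of 10 alternatives, with adjusted p up to 0.226 and 0.192. Of 13 regulators of mitochondrial genes, 2 or 3 were tested per experiment. Tfb2m, a mitochondrial transcription factor, was at 9.73 and 11.1 RPKM at 24 h, at 0.175 and 0.463 RPKM at 72 h without and at 14.8 and 11.3 RPKM at 72 h with IL-21. It fell by 4.61 from 24 h to 72 h (SE 0.54, adjusted p = 0.000184) and was higher with IL-21 at 72 h by 5.20 (SE 0.56, adjusted p = 0.000122, up to 0.155 over the alternatives). The untreated 72 h libraries are those that lacked many genes. Tfam, which packages and transcribes mitochondrial DNA, fell by 1.11 from 24 h to 72 h without IL-21 (adjusted p = 0.0204, up to 0.184 over the alternatives). Gabpa, a factor that binds promoters of subunit genes, was at 5.41 and 6.19 RPKM with IL-21 and at 24.0 and 23.1 RPKM with the inhibitor (log2 fold change 2.12, SE 0.34, adjusted p = 0.0229, up to 0.157). The control held 8.38 and 6.77 RPKM (log2 fold change 1.92, SE 0.34, adjusted p = 0.022, edgeR), and each of these calls was lost in 6 of 10 alternatives. Gabpa passed the filter only through the inhibitor group, where it was highest, so neither test is independent of the filter. With edgeR's own filter the adjusted p was 0.112 against IL-21 and 0.0851 against the control.

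In trNK-T against trNK-V, 21.2% of all tested genes were called, and 3 genes of the lists, named because they were among them, are given as a description. Cycs, the gene of the electron donor cytochrome c, stood at 145 against 61.2 RPKM, Cox18 at 15.1 against 7.25 RPKM and Tfb2m at 13.0 against 4.94 RPKM. The other tested genes of the lists were not called. The muscle genes that accompany Cox6a2 in heart and skeletal muscle were mostly absent: of 11 such genes, Slc25a4, a mitochondrial nucleotide carrier, exceeded 1 RPKM in all 34 libraries, and the other 10, among them Ckm, Mb and Pdk4, exceeded it in 0.

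The genes whose levels ran most like Cox6a2 over the 34 libraries were found by Pearson's r of log2(RPKM + 1), centred on the mean of each experiment, among 2661 genes. The 8 highest were Klra4 (0.88), Klra13-ps (0.80), Klra8 (0.79), Klra10 (0.78), Klra9 (0.76), Klrd1 (0.74), Gm5547 (0.73) and Ccl5 (0.73). The subset libraries that chose Cox6a2 are among the 34. The Klra genes are related members of a family whose reads may be split, so their single values are uncertain. Their sequence likeness was not computed. Klra4 was at 684 and 1130 RPKM in trNK-V, at 317 and 439 RPKM in trNK-D and at 68.6 and 110 RPKM in trNK-T, so trNK-T was lowest but above 0. The 4 lowest were Ssr3 (-0.76), Trnau1ap (-0.72), Hsp90b1 (-0.70) and Kdelr2 (-0.69). Cox8a had an r of 0.49 and Cox6a1 of 0.00.

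Because the subset libraries chose Cox6a2, the same was computed over the 28 libraries outside that experiment. The highest were then Tyrobp (0.76), Klra8 (0.75), Klra4 (0.74), Gm11714 (0.73), Rps27rt (0.71), Hcst (0.71), Med31 (0.71) and B2m (0.69), and Klra4 and Klra8 were in both sets of 8. Cox8a had an r of 0.59 and Cox6a1 of 0.14. The points share libraries, depth and cell makeup, and the values are a description.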

How the data were processed

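The labels gave each sample's group and replicate number. The authors deposited raw counts per gene without normalization, made from reads aligned with HISAT2 2.1.0 to mm10 and, by the submitters' processing notes, counted with featureCounts. The methods name RSEM instead. The deposited single-cell values are UMI counts written by the BD Rhapsody pipeline.

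RPKM were computed from the counts and the deposited gene lengths. Each experiment was fitted over all its groups and no covariate with edgeR 4.0.16 (R 4.3.3; TMM factors, library totals over all genes), after the filter of 10 RPKM, and DESeq2 1.42.0 was an alternative. The single cells were clustered with scanpy 1.11.5 (2000 variable genes, 20 components, Leiden resolution 0.8), and no doublet caller was run. A cluster was named where at least 3 fixed markers were 3-fold enriched, except for trNK clusters. These needed 10 UMIs of each trNK marker and Eomes at 3 times and Itga1 at 1.5 times the level in B cell-like cells. They also needed a median depth above a set fraction of that of all kept cells (2576 UMIs). A cluster of 258 cells led by Gm26917, with a median of 766 UMIs, failed only this rule and was left unnamed. Ncr1 and Klrb1c were at 122 and 90.4 CPM in the terminal-like cluster led by Mt2, against 110 and 126 CPM in B cell-like cells. A virginal or terminal marker counted above the midpoint of its levels over the trNK clusters. Terminal-like clusters needed 4 of 7 terminal markers and no virginal marker. The thresholds for the trNK stages were set after the clusters were seen. A trNK cluster with Cxcr6 among its 5 leading genes was left unnamed. Coding sequences were read from the reference genome of the same build.

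All 10 isoform genes are named in every experiment. Of the lists, each called gene is named, at most 3 per list and comparison, and of the genes like Cox6a2 the 8 highest and 4 lowest by r. The members and lists were chosen with earlier results of these data known. Single-cell shares and levels cover 1 pooled sample. Chromatin accessibility samples of the series were not analysed here.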

Additional observations from a re-analysis of the deposited data

Results flagged for a closer look

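The effect of IL-21 on Cox7a1 in culture differed between time points: the log2 difference at 72 h minus that at 6 h was 10.24 (SE 1.65, adjusted p = 0.00602, edgeR interaction term). The size is set by the 2 untreated libraries at 72 h, which held 0 reads of Cox7a1 and in which 67 of 3503 tested genes had none. The call held in the 13 alternatives that gave a test, with adjusted p from 0.000184 to 0.0365, and no 6 h or 72 h group passed the filter for Cox7a1 on its own, and a fit with only these groups was not run. In the other culture experiment, made with another kit, the control libraries held 21 and 12 counts of Cox7a1. Its control and IL-21 libraries overlapped in RPKM.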

How the results depend on the processing

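With 2 libraries per group, Cox6a2 and Cox7a1 varied by a median of 1.89-fold and 1.72-fold between replicates, which limits what could be called. Of 168 alternative counts of members called, 164 equalled or stayed within 1.5 times the main count. With only the groups compared, 1 member (Cox6a2) was called for IL-21 at 24 h and 0 for IL-21 at 72 h. Leaving out 1 library in turn gave 1 to 2 members for IL-21 at 72 h (2 without replicate 2 of the IL-21 group) and 1 to 2 for the difference of the IL-21 effect (2 without untreated replicate 1). In single cells, Cox6a2 in virginal-like cells moved from 67.6 CPM to 54.9 CPM with 3000 variable genes and lay between 60.2 and 75.4 CPM in the other settings, and in terminal-like cells from 1.15 CPM to 13.7 CPM, from 5 UMIs in 234 cells, with limits on UMIs, 4.78 CPM at Leiden resolution 0.4 and 3.34 CPM with 3000 variable genes. The cause was not tested. The deviation of replicate 1 from its group's mean was correlated over genes between the groups of an experiment. These correlations ran from -0.431 to 0.54, so the numbers were not taken as pairs. A replicate block changed the count of members called in 0 comparisons. Of 122 alternative tests of the called list genes, 48 lost the call. DESeq2 gave no adjusted p in 3 cases. Calls over all genes depended strongly on the setting: the counts ran from 0 to 919 at gd6.5 against virgin (280 as reported), from 0 to 597 at gd8.5 against virgin (17), from 0 to 452 at gd8.5 against gd6.5 (0), from 0 to 471 for trNK-D against trNK-V (15), from 0 to 587 for trNK-T against trNK-D (82) and from 363 to 2022 for trNK-T against trNK-V (992). They ran from 0 to 162 for IL-21 against control (12), from 1 to 461 for inhibitor against IL-21 (123), from 19 to 653 for inhibitor against control (197), from 0 to 6 at 6 h against 0 h (0), from 0 to 31 at 24 h against 6 h (3), from 72 to 1829 at 72 h against 24 h (518), from 0 to 233 for IL-21 at 6 h (69), from 1 to 310 at 24 h (58), from 0 to 1518 at 72 h (283) and from 70 to 873 for the difference between 72 h and 6 h (146).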
